A study of Homo sapiens with 30 samples.

Results

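PANC-1 hybrid tumoroids of a pair of groups were compared, the one whose synthetic cells presented PD-1 together with CD40L and the one whose synthetic cells presented PD-1 alone. They were chosen by their sample titles and make up 6 of the 30 libraries of the series, 3 biological replicates in each of the 10 groups. PANC-1 is an established human pancreatic ductal adenocarcinoma line of epithelial cells, labelled wild type, and here 100000 of its cells per culture assembled with synthetic cells in 1% FBS. The synthetic cells are droplet-supported lipid bilayers (DSLBs), silicone oil droplets wrapped in a lipid membrane to which His-tagged recombinant ectodomains were attached. In the PD-1 group (PD1 in the labels) that ectodomain was PD-1, in the PD-1/CD40L group it was PD-1 beside CD40L, and no group carried CD40L without PD-1. The other groups were tumoroids without DSLBs, tumoroids with plain DSLBs, and DSLBs that paired PD-1 with CD2, CD27, CTLA4, ICOS, LAG3 or TIGIT. Synthetic cells have no RNA of their own to count, so the libraries report on 1 cancer cell line that met isolated protein domains and no living T cell. The comparison asks which transcripts of the cancer cells differed when CD40L was co-presented with PD-1.

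CD40L (CD154) is a ligand of the tumour necrosis factor family that activated helper T cells display. Its receptor CD40 recruits TRAF adaptors, which lead to IκB kinase and the canonical NF-κB subunits on one branch and, through the kinase NIK (MAP3K14) and IKKα (CHUK), to processing of NFKB2 on the other. In epithelial tumour cells CD40 is known for NF-κB target genes, antigen presentation and, in some lines, cell death. PD-1 is the inhibitory receptor of T cells and binds PD-L1 (CD274) or PD-L2 (PDCD1LG2) on the tumour cell, so a tumour cell that meets PD-1 receives it through those ligands.

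The 3 PD-1/CD40L libraries held 50836609, 26963670 and 21903971 expected counts and the 3 PD-1 libraries 41024555, 54659032 and 34361063, within a range of 21903971 to 60506800 over all 30. The epithelial line was recognisable in both groups: keratin 18 (KRT18) averaged 1598 ± 29.0 TPM (the authors' level per length; SD, n = 3) with PD-1/CD40L and 1530 ± 91.1 TPM with PD-1. None of the 9 epithelial markers passed the test (median log2 fold change 0.01), while the T cell genes CD3D, CD3E and CD2 and the B cell gene MS4A1 had 0 counts in all 6 libraries. Of the other marker lists, 2 of the T and B cell genes, 2 of the myeloid genes and 4 of the fibroblast and endothelial genes had enough counts to be tested, and none passed. The T cell gene CD8A, at a mean of 1.75 CPM (expected counts scaled to the library total) with PD-1/CD40L, against 1.29 CPM with PD-1, was the only one of these at an unadjusted p under 0.05, and its groups did not overlap (0.42 ± 0.19, edgeR adjusted p = 0.413). The leukocyte gene PTPRC did not overlap either and lay on the other side, at 0.0807, 0.114 and 0 CPM with PD-1/CD40L, against 0.200, 0.148 and 0.117 CPM with PD-1 (-1.11 ± 0.74, edgeR adjusted p = 0.595). Some libraries stood apart from the others of their group. As a measure, the smaller of a library's chi-square distances per gene to the other libraries of its group was divided by the distance between those others. This ratio was 3.86 for PD-1 replicate 1 and 2.30 for PD-1/CD40L replicate 3, and outside these groups 8.51 for PD-1/LAG3 replicate 3, 5.84 for replicate 2 without DSLBs and 3.32 for PD-1/CTLA4 replicate 2. Each of these libraries also held the highest or the lowest share of mitochondrially encoded RNA in its group. Results that rest on these libraries are given with and without them.

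In all, 18424 of 60483 gene records were tested with edgeR, in one model of the 30 libraries, and below a gene is said to pass when its edgeR p, adjusted over all genes tested, is under 0.05. Against PD-1 alone, 2 records passed an adjusted p of 0.05, SCARNA7 and MT-RNR1, both higher with PD-1/CD40L (percent called 0.0109), and 0 were lower. At an unadjusted p under 0.05, 1196 genes (6.49%) were higher and 895 (4.86%) lower, and the 3 and 3 libraries did not overlap for 1639 genes on the higher side (8.9%) and 2029 on the lower side (11.0%). DESeq2 called more genes, 75 higher (0.407%) and 87 lower (0.472%) from the 6 libraries and 81 higher (0.44%) and 29 lower (0.157%) from all 30. In a simulation given under the data processing, whose counts were drawn with the spread that edgeR had fitted, DESeq2 also made more false calls than edgeR. At an edgeR adjusted p under 0.1 there were 42 higher (0.228%) and 14 lower (0.076%). Among 14331 protein-coding genes tested by themselves, edgeR called 0, with 1519 at an unadjusted p under 0.05.

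SCARNA7 is a small Cajal body RNA of the box C/D class, whose members guide the modification of spliceosomal RNAs. Its gene (ENSG00000238741.1) lies on GRCh38 at chr3:160514907-160515236, minus strand, within an intron of KPNA4, which is transcribed from the same strand and encodes a nuclear import factor. Its ends, bases 1 to 60 and 271 to 330, are shown because it was the record with the smallest p and because the boxes of its class lie there. The first TGATGA (box C) and the last CTGA (box D) are in capitals:

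SCARNA7 5′ end: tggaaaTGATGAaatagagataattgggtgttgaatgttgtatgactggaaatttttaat
SCARNA7 3′ end: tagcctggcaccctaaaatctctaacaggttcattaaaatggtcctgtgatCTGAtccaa

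The letters TGATGA begin at base 7 and the last CTGA at base 322 of 330, searched on the transcribed strand only. Of 49 annotated small Cajal body RNA transcripts, 13 (26.5%) hold TGATGA, 36 (73.5%) hold CTGA and 10 (20.4%) hold the first before the second. In the PD-1/CD40L libraries SCARNA7 reached 1.03, 0.984 and 0.742 CPM, from 51, 26 and 16 counts. In the PD-1 libraries it stood at 0.125, 0.0556 and 0.0583 CPM, from 5, 3 and 2 counts. Every PD-1/CD40L value lay above every PD-1 value. SCARNA7 rose by 3.52 ± 0.41 on the log2 scale (SE, edgeR adjusted p = 4.79e-05, n = 3 and 3), and the 10 counts of the PD-1 group leave the size of that difference imprecise. Its host gene KPNA4 averaged 132 ± 8.63 CPM with PD-1/CD40L, against 143 ± 3.65 CPM with PD-1 (SD), a log2 difference of -0.11 ± 0.08 (SE, edgeR adjusted p = 0.61). DESeq2 gave no adjusted p for SCARNA7.

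Other short structured RNAs with few or no poly(A) ends lay on the same side. The 5.8S rRNA, a component of the large ribosomal subunit, is annotated in 4 tested records whose 153-base sequences are identical and whose expected counts were equal in every library, so they count as 1 RNA. RNA5-8SN1 on chr21:8439823-8439975, plus strand, stands for them, shown because these records pass a test further on:

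RNA5-8SN1: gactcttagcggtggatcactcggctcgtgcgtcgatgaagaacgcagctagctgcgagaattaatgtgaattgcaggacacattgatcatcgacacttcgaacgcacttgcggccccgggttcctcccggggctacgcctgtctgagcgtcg

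Summed over the 4 records, 5.8S rRNA reached 164, 104 and 55.8 CPM with PD-1/CD40L, against 22.2, 10.0 and 5.60 CPM with PD-1. The groups did not overlap. The log2 fold change was 3.11 ± 0.65 (SE, edgeR adjusted p = 0.0758; DESeq2 on the 6 libraries, 0.00437). RMRP, the RNA of the RNase MRP complex that processes ribosomal RNA, reached 6.76, 5.03 and 3.66 CPM against 1.72, 1.15 and 0.408 CPM. The difference was 2.23 ± 0.71 on the log2 scale (edgeR adjusted p = 0.25; DESeq2, 5.05e-07). RN7SL1, an RNA of the signal recognition particle, reached 56.0, 41.2 and 58.1 CPM against 29.1, 33.3 and 31.4 CPM (log2 fold change 0.73 ± 0.38, edgeR adjusted p = 0.479; DESeq2, 5.05e-07). RPPH1, the RNA of RNase P, overlapped between the groups (0.14 ± 0.56).

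The 5 small Cajal body RNAs with enough counts, of 25 records, all had a log2 fold change above 0 (median 0.61, against 0.00 over all genes tested), 1 of them past the threshold. SCARNA9, the next, stood at 0.303, 0.416 and 0.463 CPM with PD-1/CD40L and at 0.1, 0.0185 and 0.0583 CPM with PD-1 (2.72 ± 0.63, edgeR adjusted p = 0.0853). Of 525 small nucleolar RNA records 8 were tested, 7 of them above 0 (median 1.12) and 0 past the threshold. At an unadjusted p under 0.05, 2 of them were higher (25.0%, against 6.49% of all genes). SNORA73B, which lies in an exon of its host SNHG3, gave the smallest p of these (1.21 ± 0.40, edgeR adjusted p = 0.262). Their host genes, which are spliced transcripts, showed a median of 0.07 over 31 tested, with 0 past the threshold. At an unadjusted p under 0.05, 5 were higher (16.1%, against 6.49% of all genes) and 0 lower. Of the 4 other structured RNAs tested, 4 had a value above 0 and 0 passed. The count filter can keep a record through the groups where it is high. SCARNA9, with 4, 1 and 2 counts in the PD-1 libraries, and SCARNA7 were kept in that way. Numbers above 0 among the few records kept can thus be partly set by the filter and are not independent evidence of direction. Expected counts of RNAs this short depend on how fragments of that size were kept, and the part of that in these values was not tested.

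Whether these RNAs set PD-1/CD40L apart from the other co-presented molecules was asked by setting it against the mean of the 6 other PD-1/ligand groups, a contrast that does not use the PD-1 libraries. There 5 records passed, all higher (0.0271%), SCARNA7 (2.21, SE 0.26, edgeR adjusted p = 5.6e-05) and the 4 records of 5.8S rRNA (2.33, SE 0.41, edgeR adjusted p = 0.049), and 0 were lower (9.83% of all genes at an unadjusted p under 0.05). The 5.8S call was lost with the replicate block (2.30, edgeR adjusted p = 0.0919), without PD-1/CD40L replicate 1 (1.89, edgeR adjusted p = 0.244) and without PD-1/CD40L replicate 2 (2.37, edgeR adjusted p = 0.276), and it missed the threshold more narrowly, at 2.32 to 2.33, under 3 other settings. The mean over the 6 groups covers unlike groups. SCARNA7 averaged 0.918 ± 0.155 CPM with PD-1/CD40L, 0.889 ± 0.117 with PD-1/CD2, 0.878 ± 0.281 with PD-1/CD27 and 0.891 ± 0.032 with PD-1/CTLA4 (SD, n = 3 each). It averaged 0.0116 ± 0.0201 CPM with PD-1/ICOS, 0.0915 ± 0.0359 with PD-1/LAG3 and 0.0922 ± 0.042 with PD-1/TIGIT. Plain DSLBs gave 0.087 ± 0.0404 CPM and tumoroids without DSLBs 0.0262 ± 0.00895 CPM. The 4 groups with the high level did not overlap with any library of the other 6. The sample titles name no batch of library preparation. Its part in this split, and in those of 5.8S rRNA and MT-RNR1 below, was not tested. As sums of 3 libraries these were 93 counts with PD-1/CD40L (exact Poisson 95% interval 75.1 to 113.9), 119 with PD-1/CD2, 102 with PD-1/CD27 and 112 with PD-1/CTLA4. The sums were 1 with PD-1/ICOS, 14 with PD-1/LAG3, 11 with PD-1/TIGIT, 10 with PD-1, 9 with plain DSLBs and 4 without DSLBs.

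**Figure D1:**
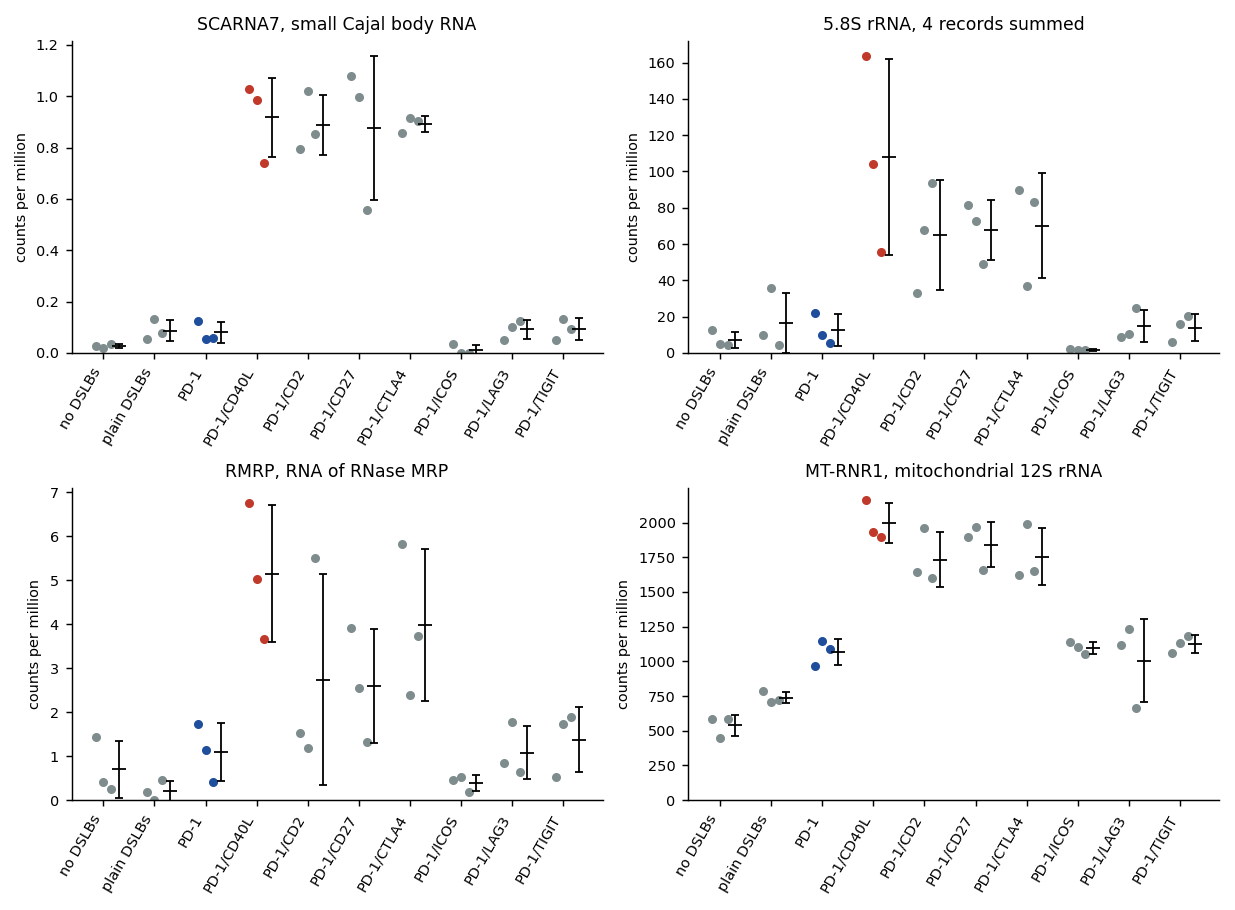
SCARNA7, 5.8S rRNA (4 records summed), RMRP and MT-RNR1 in CPM (linear axes from 0) in the 3 libraries of each of the 10 groups, with the mean and SD beside the points; error bars are cut at 0. PD-1/CD40L (red) lies above PD-1 (blue) in all 4 panels, and the groups with CD2, CD27 or CTLA4 in place of CD40L show SCARNA7 means of 0.878 to 0.891 beside the 0.918 of PD-1/CD40L.

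Taken one group at a time in the same edgeR fit, SCARNA7 differed from PD-1/CD40L by 0.05 ± 0.31 (SE, adjusted p = 0.968) in PD-1/CD2, by 0.08 ± 0.31 (adjusted p = 0.956) in PD-1/CD27 and by 0.06 ± 0.31 (adjusted p = 0.986) in PD-1/CTLA4. An SE of this size does not exclude a moderate difference in either direction. Against PD-1/LAG3 and PD-1/TIGIT it was higher by 3.26 ± 0.38 (edgeR adjusted p = 7.14e-05) and 3.30 ± 0.40 (edgeR adjusted p = 0.000121), and against PD-1/ICOS, with its single count, the edgeR adjusted p was 1.40e-07. The 5.8S records followed the same split, with log2 differences of 0.76 ± 0.58, 0.69 ± 0.58 and 0.65 ± 0.57 from PD-1/CD2, from PD-1/CD27 and from PD-1/CTLA4 and calls only against PD-1/ICOS and PD-1/TIGIT (edgeR adjusted p = 0.00265 and 0.0386; against PD-1/LAG3, 0.0828). Over all genes, PD-1/CD40L differed from PD-1/CD27 and from PD-1/CTLA4 in 0 genes, with 1585 (8.6%) and 1316 (7.14%) at an unadjusted p under 0.05. It differed from PD-1/TIGIT in 117 (0.635%), from PD-1/ICOS in 6 records (0.0326%), all named here, from PD-1/LAG3 in 3 (0.0163%), 1 of them lower (0.00543%), and from PD-1/CD2 in 2 (0.0109%). Named after their values were seen, those against PD-1/CD2 were BAG6, a chaperone (0.31 ± 0.05, edgeR adjusted p = 0.0217), and SNX33, a sorting nexin (0.37 ± 0.06, edgeR adjusted p = 0.0323), and KBTBD6, an adaptor of a ubiquitin ligase, was lower than in PD-1/LAG3 (-0.39 ± 0.07, edgeR adjusted p = 0.0322). Against PD-1 alone BAG6 differed by 0.06 ± 0.05, SNX33 by 0.15 ± 0.06 and KBTBD6 by -0.25 ± 0.07 (edgeR adjusted p = 0.706, 0.385 and 0.162).

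MT-RNR1, the 12S rRNA of the mitochondrial ribosome (ENSG00000211459.2, chrM:648-1601, plus strand), reached 2164, 1933 and 1898 CPM with PD-1/CD40L, against 964, 1146 and 1090 CPM with PD-1. The groups did not overlap, and the spread within each was small beside the gap. MT-RNR1 rose by 0.91 ± 0.15 on the log2 scale (SE, edgeR adjusted p = 0.0185). The call was lost without PD-1 replicate 1 (0.84, edgeR adjusted p = 0.333) and without PD-1 replicate 2 (0.96, edgeR adjusted p = 0.0776), and it held without the 3 libraries that stood apart most (0.84, edgeR adjusted p = 0.000102). Without PD-1 replicate 1 and PD-1/CD40L replicate 3 it was 0.88 (edgeR adjusted p = 0.23). MT-RNR2, the 16S rRNA, reached 12809, 12636 and 13388 CPM against 7377, 8388 and 8372 CPM (0.69 ± 0.14, edgeR adjusted p = 0.0673; DESeq2 on the 6 libraries, 1.39e-25). Like SCARNA7, MT-RNR1 separated PD-1/CD40L from PD-1/ICOS, PD-1/LAG3 and PD-1/TIGIT (0.86, 0.99 and 0.83, each with an SE of 0.15; edgeR adjusted p = 0.0123, 0.00454 and 0.0173). Its differences from PD-1/CD2, from PD-1/CD27 and from PD-1/CTLA4 were 0.20, 0.12 and 0.19, each ± 0.15 (edgeR adjusted p = 0.566, 0.823 and 0.787). Against the mean of all 6 the difference was 0.53 (edgeR adjusted p = 0.0724). Plain DSLBs averaged 739 ± 39.1 CPM and tumoroids without DSLBs 538 ± 77.3 CPM, both under the PD-1 group at 1067 ± 93.2 CPM (SD).

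The 13 mRNAs of the mitochondrial genome encode subunits of the respiratory chain and ATP synthase. All 13 were tested and for each of them the PD-1/CD40L libraries lay above the PD-1 libraries without overlap, 13 on the higher side (8.9% of all genes), with a median log2 fold change of 0.77. At an unadjusted p under 0.05 there were 8, against 6.49% of all genes, and 0 passed the threshold in edgeR. MT-ND6, which is the subunit gene read from the light strand, stood at 9.63, 11.96 and 19.4 CPM with PD-1/CD40L, against 5.75, 5.01 and 6.65 CPM with PD-1 (1.22 ± 0.27, edgeR adjusted p = 0.0853). MT-ATP8, an ATP synthase subunit, stood at 325, 295 and 483 CPM against 146, 159 and 217 CPM (1.08 ± 0.30, edgeR adjusted p = 0.186). For MT-CO1, a cytochrome c oxidase subunit and the most counted of them, the values were 10485, 10621 and 16164 CPM against 6169, 9380 and 9454 CPM (0.58 ± 0.23, edgeR adjusted p = 0.357). The others ranged from 0.54 (MT-ND3) to 0.87 (MT-CYB). DESeq2 on the 6 libraries called MT-ND6, MT-ATP8 and MT-ND3.

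**Figure D2:**
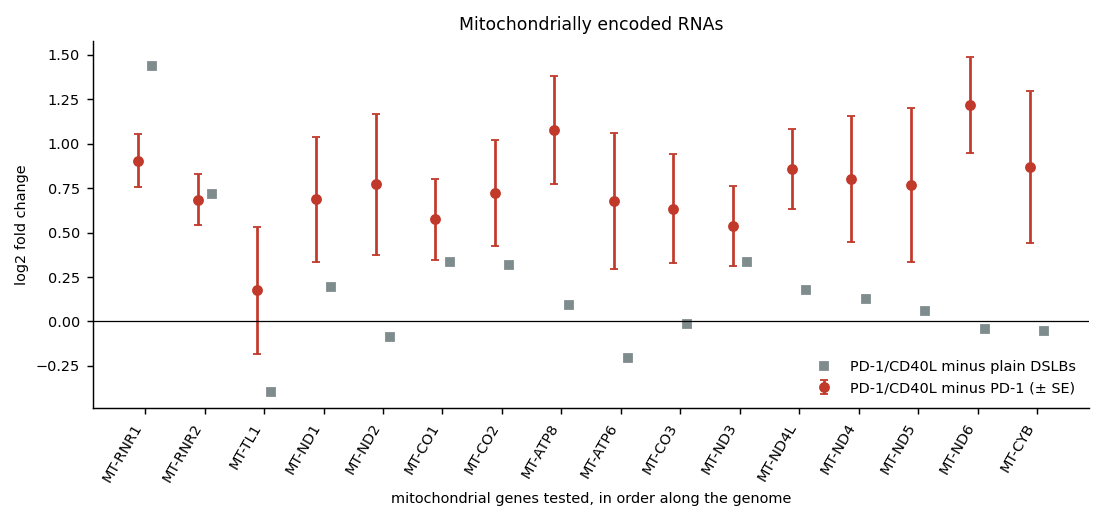
Log2 fold change of the 16 mitochondrially encoded RNAs tested, in genome order, for PD-1/CD40L minus PD-1 (red, ± SE) and minus plain DSLBs (grey squares). Against PD-1 the 13 mRNAs lie between 0.54 and 1.22, and against plain DSLBs their median is 0.09, while both rRNAs lie at or above 0.69 against either reference.

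The size of the mRNA difference depended on 2 libraries. These held the lowest mRNA share of the PD-1 group, 1.84%, and the highest of the PD-1/CD40L group, 5.50%. PD-1/CD40L replicate 3 was the highest of its group for 13 of 13 mRNAs and PD-1 replicate 1 the lowest of its group for 11 of 13. Without these 2 libraries the median was 0.33, with 1 of the 13 at an unadjusted p under 0.05, and the remaining libraries still did not overlap for 13 of 13. Without the 3 libraries that stood apart most it was 0.55, with 10 of 13. Leaving out the lowest PD-1 library or the highest PD-1/CD40L library narrows the mRNA difference by construction. The smaller medians are thus no independent check of its size. The rRNAs moved less, from a median of 0.80 to 0.74 without the same 2. Against plain DSLBs, PD-1/CD40L gave a median of 0.09 for the mRNAs and 1.08 for the rRNAs, and PD-1 gave -0.68 and 0.28, comparisons that share the plain libraries. Against plain DSLBs, PD-1/CD40L differed in 4700 genes (25.5%). By library, the mRNA share of all expected counts was 3.59%, 3.62% and 5.50% with PD-1/CD40L and 4.24%, 3.93% and 3.88% with plain DSLBs. The median of 0.09 thus covers PD-1/CD40L libraries on both sides of the plain ones, with only replicate 3 above them. With PD-1 alone the shares were 1.84%, 3.01% and 3.06%, under every plain library.

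As a share of all expected counts, mitochondrially encoded RNA made up 5.05%, 5.05% and 7.001% of the PD-1/CD40L libraries and 2.66%, 3.95% and 4.002% of the PD-1 libraries. The means were 5.70% ± 1.13 and 3.54% ± 0.764 (SD, n = 3), against 4.90% ± 0.249 with plain DSLBs. The groups did not overlap, and the two-sided exact permutation test gave p = 0.10, the smallest p that 3 against 3 libraries allow. The widest Wilson 95% interval on one of these shares spanned 0.0214 percentage points, which covers counting error only. The rRNAs made up 1.46% ± 0.0392 against 0.899% ± 0.0745 and the mRNAs 4.24% ± 1.09 against 2.64% ± 0.69 (exact permutation p = 0.10 for each). The mean rRNA share was 0.882% with plain DSLBs. In bulk RNA, fewer cells of a kind and less RNA per cell cannot be told apart, and here more mitochondrial RNA and less of all other RNA cannot either.

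**Figure D3:**
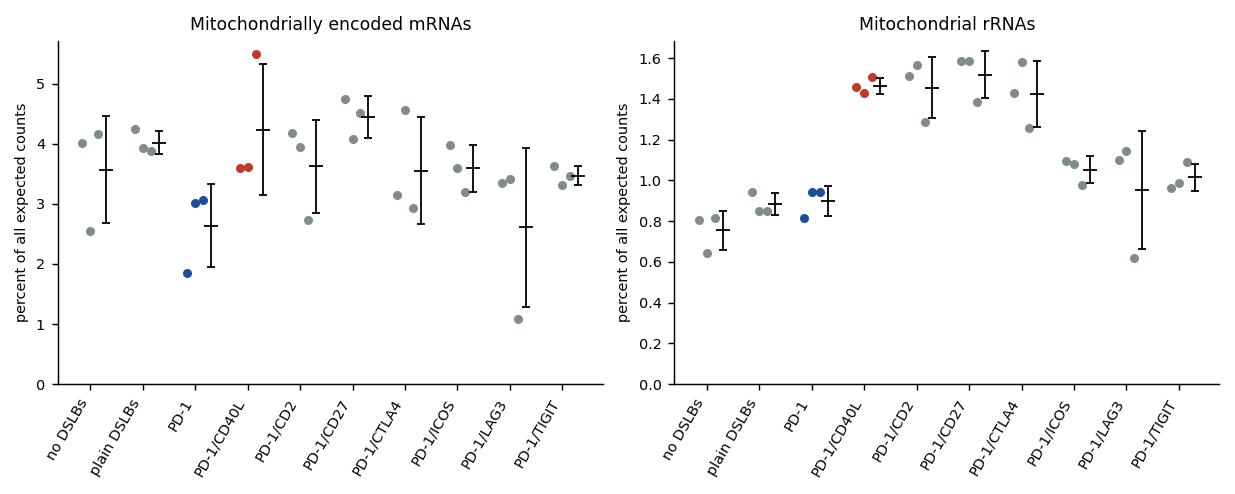
Share of all expected counts from mitochondrially encoded mRNAs (left) and mitochondrial rRNAs (right), in percent, for the 3 libraries of each group with mean and SD; both axes start at 0. The rRNA share lies at 1.43 to 1.51% in the PD-1/CD40L libraries and at 0.813 to 0.945% in the PD-1 libraries, and the mRNA share spreads more widely within groups.

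Nuclear genes of the same organelle lay on the other side against PD-1 alone. Of 77 nuclear-encoded respiratory chain subunits tested, 66 had a log2 fold change below 0 (median -0.12), 13 were lower (16.9%, against 4.86% of all genes) and 0 higher at an unadjusted p under 0.05, and 0 passed in edgeR. COX7A2, a subunit of cytochrome c oxidase, stood at 179, 167 and 160 CPM against 206, 190 and 206 CPM (-0.25 ± 0.09, edgeR adjusted p = 0.276; DESeq2, 0.019). UQCRFS1, the iron-sulfur subunit of complex III, gave -0.24 ± 0.08. Of 78 mitochondrial ribosomal proteins, 72 were below 0 (median -0.11), 14 lower (17.9%) and 1 higher at an unadjusted p under 0.05, with MRPL19 at -0.25 ± 0.07 and MRPS25 at 0.26 ± 0.08 (edgeR adjusted p = 0.19 and 0.235). Without the 2 libraries of these groups that stood apart the medians shrank to -0.04 and -0.05. Against plain DSLBs, PD-1/CD40L gave medians of 0.17 for the respiratory chain subunits and 0.01 for the mitochondrial ribosomal proteins. PD-1 alone gave 0.31 and 0.16 against the same plain libraries. So neither list lay under plain DSLBs with PD-1/CD40L, and both lay further above them with PD-1 alone. Of 35 factors of mitochondrial DNA expression 0 passed, 6 were lower (17.1%, against 4.86% of all genes) and 3 higher (8.57%, against 6.49%) at an unadjusted p under 0.05 (median -0.02). TFAM, the packaging and transcription factor of mitochondrial DNA, stood at 65.2, 58.2 and 60.9 CPM against 79.2, 69.1 and 70.7 CPM, with no overlap (-0.25 ± 0.08, edgeR adjusted p = 0.209). LRPPRC, which stabilises mitochondrial mRNAs, gave -0.17 ± 0.06 and TRMT10C, a subunit of mitochondrial RNase P, -0.22 ± 0.07 (edgeR adjusted p = 0.335 and 0.276). The 1 mitochondrial tRNA with enough counts, MT-TL1, overlapped (0.18 ± 0.36). Of 7 tested nuclear copies of mitochondrial genes, which share sequence with the mitochondrial genome and so may take its reads, 7 were above 0 (median 0.61) and 0 passed.

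The receptor of CD40L was expressed. CD40 (chr20:46118271-46129863, plus strand) stood at 24.3, 23.5 and 22.7 CPM with PD-1/CD40L and at 21.1, 21.1 and 23.6 CPM with PD-1, or 24.4 ± 1.67 and 22.6 ± 2.89 TPM. These ranges overlapped, and the log2 fold change was 0.10 ± 0.07 (SE, edgeR adjusted p = 0.597). Over all 10 groups the CD40 means ran from 18.5 to 23.5 CPM, with plain DSLBs at 18.5 ± 1.05. CD40LG itself, which encodes CD40L, had 0 counts in the 6 libraries. The RNAs of the ligands through which PD-1 would act were close to absent from the counts, which do not measure protein. The paper reports soluble PD-L1 protein in the medium of such tumoroids, at raised levels with PD-1/CD2. CD274, which encodes PD-L1, had 8, 1 and 0 counts with PD-1/CD40L and 3, 8 and 4 counts with PD-1, and PDCD1LG2, which encodes PD-L2, had 0 counts in each of these libraries, where 3 counts, the limit that 0 allows, would be 0.0549 to 0.137 CPM. Of the 9 tested members of the receptor list, integrins that also bind CD40L included, 0 passed. ITGB1 and ITGA5, which form an integrin pair, gave -0.06 ± 0.11 and -0.05 ± 0.09, ITGAV -0.17 ± 0.11, ITGB3 0.15 ± 0.20, ITGA2B 0.13 ± 0.25, ITGB2 0.23 ± 0.11 and ITGAM -0.43 ± 0.25. PDCD1, the gene of PD-1, stood at 0.617 ± 0.189 CPM against 0.382 ± 0.103 CPM (0.63 ± 0.29, edgeR adjusted p = 0.428).

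Below the receptor, 0 of 19 CD40 adaptors and kinases passed, with 13 below 0 (median -0.05). TRAF1, an adaptor that NF-κB itself induces, stood at 14.4, 15.7 and 18.9 CPM against 10.7, 13.6 and 14.7 CPM, an overlap of 1 library with the other group (0.32 ± 0.11, edgeR adjusted p = 0.276). TRAF2, TRAF3, TRAF5 and TRAF6, the adaptors that bind CD40 or its partners, gave -0.02 ± 0.11, -0.03 ± 0.07, 0.20 ± 0.12 and -0.20 ± 0.10. MAP3K14, the kinase NIK, gave -0.01 ± 0.09. CHUK (IKKα) stood at 49.0, 46.4 and 41.2 CPM against 53.2, 51.5 and 52.9 CPM, with no overlap (-0.20 ± 0.07, edgeR adjusted p = 0.295). IKBKB and IKBKG, the other subunits of IκB kinase, gave 0.06 ± 0.10 and -0.13 ± 0.08. BIRC2 and BIRC3, ubiquitin ligases of the TRAF complex, gave -0.13 ± 0.07 and -0.07 ± 0.08. The kinases MAP3K7, MAP3K1, MAP2K4, MAPK8 and MAPK14 and the TAK1 partners TAB1 and TAB2 lay between -0.15 (MAP3K1) and 0.10 (TAB1). JAK3, which binds CD40 directly, gave 0.25 ± 0.13 (edgeR adjusted p = 0.453).

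Of the 5 NF-κB subunits 0 passed and 0 reached an unadjusted p under 0.05 (median 0.06). NFKB2, the subunit of the noncanonical branch, stood at 52.3, 55.3 and 60.9 CPM against 52.1, 50.9 and 50.7 CPM, barely apart (0.13 ± 0.08, edgeR adjusted p = 0.528). Its partner RELB gave 0.06 ± 0.09, and RELA, NFKB1 and REL gave 0.06 ± 0.05, -0.01 ± 0.06 and -0.09 ± 0.21. Of 8 inhibitors and feedback genes 0 passed. BCL3, a nuclear IκB, stood at 19.9, 20.3 and 19.6 CPM against 16.02, 18.3 and 16.2 CPM, with no overlap (0.24 ± 0.09, edgeR adjusted p = 0.294). TNFAIP3 (A20) gave 0.32 ± 0.13 and the deubiquitinase CYLD -0.25 ± 0.09 (edgeR adjusted p = 0.335 and 0.296), and NFKBIA, the classical early target, -0.07 ± 0.08. By the authors' TPM, TNFAIP3 lay in the other direction, at 2.64 ± 0.546 with PD-1/CD40L against 2.87 ± 0.634 with PD-1 (SD, n = 3).

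**Figure D4:**
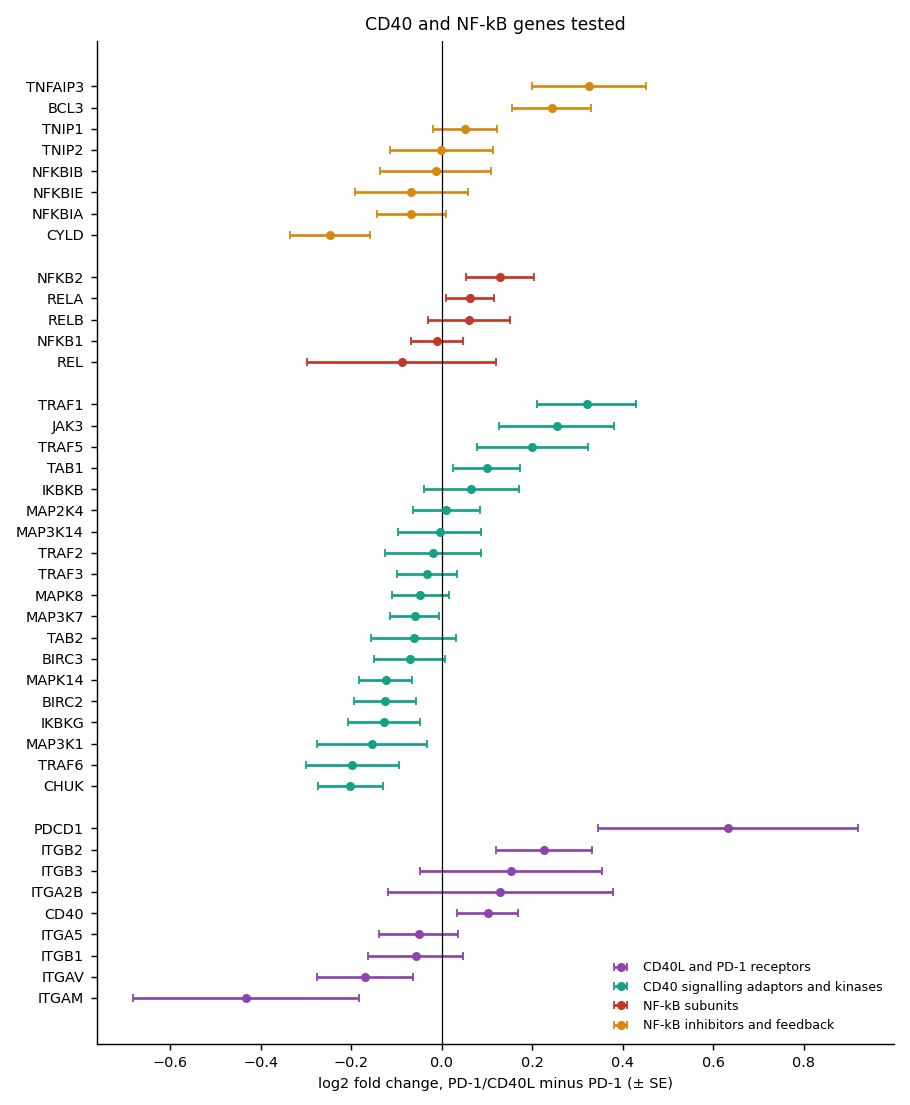
Log2 fold change, PD-1/CD40L minus PD-1, with SE, of the 41 tested genes of 4 lists: receptors, CD40 adaptors and kinases, NF-κB subunits, and NF-κB inhibitors and feedback genes. TRAF1 and JAK3 lie at 0.32 and 0.25 and CHUK and CYLD at -0.20 and -0.25, and none passed the threshold.

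Target genes gave the same picture in these RNA counts. For separate PANC-1 tumoroids with CD40L on DSLBs, the paper reports granules rich in CD40 at the contact. It also reports raised Bfl-1, a CD40 target, by quantitative PCR and western blot. Of 37 NF-κB and CD40 targets 25 were tested and 0 passed, with a median of 0.04. At an unadjusted p under 0.05, 2 were higher and 2 lower (8.0% each, against 6.49% and 4.86% of all genes). VEGFA, an angiogenic factor, stood at 215, 259 and 276 CPM against 151, 206 and 207 CPM (0.41 ± 0.12, edgeR adjusted p = 0.198), and IER3, an early survival gene, gave 0.20 ± 0.08. The chemokine CXCL8 stood at 0.545, 0.53 and 0.417 CPM against 1.07, 0.742 and 0.70 CPM (-0.73 ± 0.29, edgeR adjusted p = 0.346) and the apoptosis inhibitor XIAP gave -0.19 ± 0.08. Of 16 antigen presentation genes 0 passed (median 0.05), with TAP2 (0.17 ± 0.07) and TAPBP (0.20 ± 0.09), which load peptides onto class I molecules, higher and their subunit B2M lower (-0.19 ± 0.07) at an unadjusted p under 0.05. Of 21 apoptosis and death receptor genes 0 passed in edgeR (median -0.02). At an unadjusted p under 0.05, 4 were lower (19.0%, against 4.86% of all genes) and 1 higher (4.76%, against 6.49%). BID, FADD, PMAIP1 and BAD, which promote apoptosis, gave -0.21 ± 0.08, -0.19 ± 0.09, -0.21 ± 0.09 and -0.33 ± 0.15, the last called by DESeq2 on the 6 libraries (adjusted p = 0.0399), and BCL2L2, which opposes it, 0.18 ± 0.07. Among 16 p53 targets, 23 interferon response genes and 19 immediate early and MAPK feedback genes 0 passed, with medians of -0.02, 0.10 and 0.02. In the p53 list DDB2, a DNA repair factor, gave 0.19 ± 0.09, in the interferon list the antiviral gene OAS3 0.19 ± 0.09 and in the early list the phosphatase DUSP6 -0.18 ± 0.08, though by TPM DUSP6 averaged 8.98 ± 0.711 with PD-1/CD40L against 8.66 ± 0.125 with PD-1.

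Of 30 proliferation genes, 27 were below 0 (median -0.18), 14 lower (46.7%) and 1 higher at an unadjusted p under 0.05, against 4.86% lower over all genes, and 16 did not overlap on the lower side (53.3%, against 11.0%). None of them passed in edgeR. TOP2A, a topoisomerase of dividing cells, stood at 125, 134 and 147 CPM against 163, 156 and 168 CPM (-0.26 ± 0.09, edgeR adjusted p = 0.258; DESeq2, 0.0265), and CDK1, the mitotic kinase, at 32.9, 31.7 and 32.1 CPM against 41.2, 35.8 and 39.5 CPM (-0.27 ± 0.09, edgeR adjusted p = 0.235). MCM2, a replication helicase subunit, gave -0.20 ± 0.07 and RRM2, a ribonucleotide reductase subunit, -0.21 ± 0.07. Without the 2 libraries that stood apart the proliferation median was -0.13, with 28 of 30 below 0 and 4 at an unadjusted p under 0.05. The 37 replication-dependent histone genes tested were centred at -0.02, with 0 past the threshold. At that level 3 were higher (8.11%, against 6.49% of all genes) and 1 lower (2.7%, against 4.86%).

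Of 82 cytosolic ribosomal proteins, 72 were below 0 (median -0.11), 6 lower and 0 higher at an unadjusted p under 0.05, and 0 passed in edgeR. The lower share, 7.32%, was near the 4.86% of all genes. By overlap, 24 lay apart on the lower side (29.3%, against 11.0% of all genes) and 0 on the higher side. RPS3A stood at 1023, 1005 and 896 CPM against 1521, 1169 and 1199 CPM (-0.41 ± 0.12, edgeR adjusted p = 0.176; DESeq2, 0.00294), and RPL35 gave -0.29 ± 0.10. Without the 2 libraries that stood apart the median was -0.03. Of 23 heat shock and integrated stress genes 5 were lower (21.7%, against 4.86% of all genes) and 0 higher at that level (median -0.09), with HSPA8, the constitutive chaperone, at -0.29 ± 0.09 (edgeR adjusted p = 0.198; DESeq2, 0.0194), ASNS, an amino acid stress target, at -0.20 ± 0.08 and 0 past the threshold in edgeR. The 19 hypoxia and glycolysis genes were centred at 0.04 with 0 passing, VEGFA above and PGK1, a glycolytic enzyme, at -0.18 ± 0.09.

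On the other side were nuclear and intron-retaining transcripts, 25 of 29 above 0 (median 0.18), 9 higher (31.0%, against 6.49% of all genes) and 1 lower at an unadjusted p under 0.05, and 0 past the threshold. MALAT1, an abundant nuclear RNA of speckles, stood at 1981, 1270 and 2607 CPM against 1034, 1029 and 1128 CPM (0.88 ± 0.21, edgeR adjusted p = 0.103). DDX39B, whose transcripts retain introns, stood at 226, 221 and 268 CPM against 161, 198 and 211 CPM (0.33 ± 0.10, edgeR adjusted p = 0.209; DESeq2, 0.048). PD-1/CD40L replicate 3 was the highest library for both. Without it and PD-1 replicate 1 the list's median was -0.07, with 20 of 29 below 0. Without the 3 libraries of the series that stood apart most, PD-1 replicate 1 among them, the median was 0.11, with 7 of 29 below 0.

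By class of record, 2344 lncRNAs had a median of 0.18, with 298 higher (12.7%) and 21 lower (0.896%) at an unadjusted p under 0.05. The 14331 protein-coding genes were centred at -0.01, with 771 higher (5.38%) and 753 lower (5.25%). Over all genes the shares were 6.49% higher and 4.86% lower. The 618 processed pseudogenes, which are intronless copies of mRNAs, had a median of -0.25, with 12 higher (1.94%) and 89 lower (14.4%). The 135 copies of ribosomal proteins among them had a median of -0.32, with 2 higher (1.48%) and 29 lower (21.5%). Reads of a processed pseudogene may come from its parent mRNA, and the counts do not tell them apart.

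**Figure D5:**
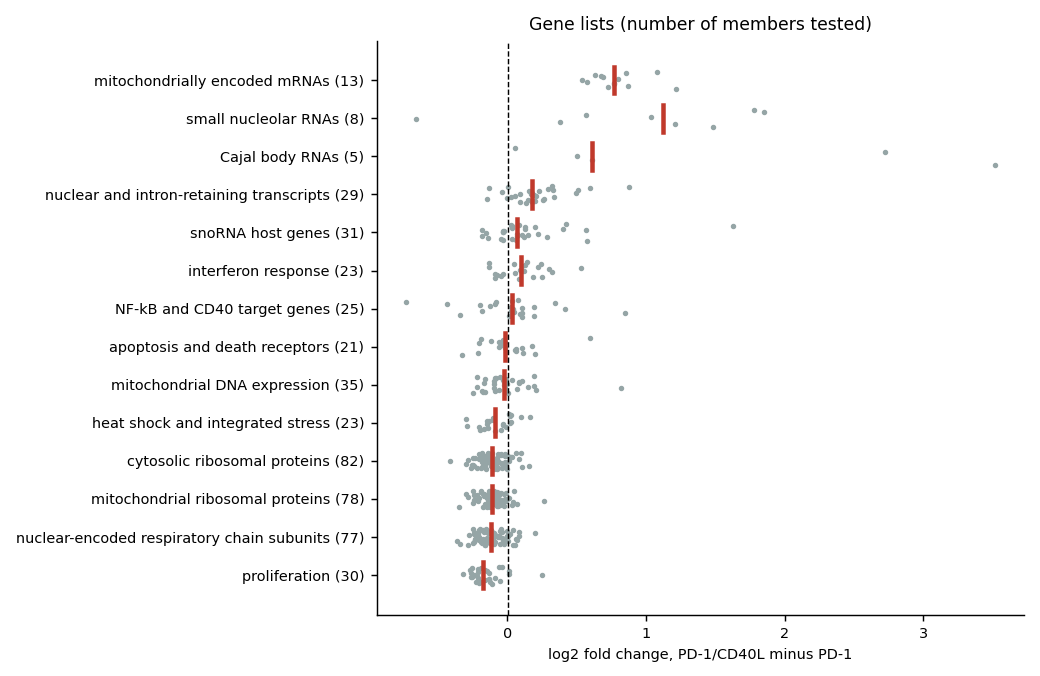
Log2 fold change, PD-1/CD40L minus PD-1, of every tested member (grey points, spread vertically only for visibility) of 14 gene lists, with the list median (red bar) and the median over all genes tested (dashed line). Medians run from -0.18 for proliferation to 0.77 for mitochondrially encoded mRNAs and 1.12 for the 8 small nucleolar RNAs.

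Among genes with a mean of at least 50 counts and no overlap between the groups, the 10 with the smallest p on each side were listed as a ranking. Apart from MT-RNR1, none of them passed in edgeR, and adjusted p ran from 0.0673 to 0.0903. Beside both mitochondrial rRNAs, the higher side held 5 lncRNAs. MIR23AHG, the host transcript of miR-23a and miR-27a (chr19:13823880-13842928, minus strand), reached 16.8, 15.5 and 15.2 CPM against 7.05, 9.46 and 11.1 CPM (0.79 ± 0.16, edgeR adjusted p = 0.0673). CAPN10-DT, MIOS-DT, THUMPD3-AS1 and SNHG3 gave 0.80 ± 0.15, 0.88 ± 0.18, 0.63 ± 0.13 and 0.58 ± 0.12. All but CAPN10-DT overlap exons of other genes, THUMPD3-AS1 those of THUMPD3 and SETD5 on the opposite strand and SNHG3 those of RCC1 on its own, and the sources used here do not give the strand setting of the counting.

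The remaining 3 on that side were protein-coding. CELF5, an RNA-binding splicing regulator, stood at 6.24, 6.17 and 7.32 CPM against 3.85, 4.62 and 4.32 CPM (0.62 ± 0.12, edgeR adjusted p = 0.0673). CDK18, a cyclin-dependent kinase, stood at 7.35, 7.61 and 7.88 CPM against 5.10, 5.51 and 5.16 CPM, without overlap (0.53 ± 0.11, edgeR adjusted p = 0.0673). LBHD1, which overlaps exons of C11orf98 on its own strand and of CSKMT and UQCC3 on the opposite strand, gave 0.60 ± 0.13. CDK18 and CELF5 lay above plain DSLBs too, by 0.76 and 0.80, whereas CAPN10-DT and SNHG3 lay 0.16 and 0.17 above them.

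On the lower side were RFK, which makes FMN from riboflavin, at 26.0, 24.1 and 23.9 CPM against 30.8, 30.8 and 32.5 CPM (-0.35 ± 0.08, edgeR adjusted p = 0.0758), and NUP88, a nuclear pore protein, at 29.6, 29.3 and 27.4 CPM against 34.9, 35.3 and 35.5 CPM (-0.29 ± 0.06, edgeR adjusted p = 0.0718). PSMA6, a proteasome subunit, gave -0.30 ± 0.07, TMPO, a nuclear lamina protein, -0.30 ± 0.07, C8orf76 -0.31 ± 0.06, ZNF555 -0.36 ± 0.08 and NOTCH2NLA, one of several near-identical NOTCH2NL genes, -0.38 ± 0.09. The 3 others were processed pseudogenes, RPL4P4 (-0.77 ± 0.16), ENSG00000237550 (-0.38 ± 0.08) and ENSG00000244313 (-0.81 ± 0.18), while RPL4, the parent of the first, gave -0.08 ± 0.08. Against plain DSLBs, TMPO gave -0.58, NOTCH2NLA -0.43, ZNF555 -0.25, NUP88 -0.25 and C8orf76 -0.18. RFK, ENSG00000244313, RPL4P4 and PSMA6 lay closer to the plain level, at -0.10, -0.09, -0.04 and -0.01, and ENSG00000237550 lay at 0.12.

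The study lists 14 genes for PD-1/CD40L. They were chosen on these same samples, so their direction here is not independent evidence. All 14 were tested, 9 above 0 and 5 below, 8 higher and 5 lower at an unadjusted p under 0.05, and 0 passed in edgeR. DESeq2 on the 6 libraries called 4 of them, MT-ND6, D2HGDH and TMEM259 higher and SELENOT lower. SELENOT, a selenoprotein of the endoplasmic reticulum, stood at 81.3, 71.8 and 70.9 CPM against 99.9, 86.0 and 90.5 CPM (-0.30 ± 0.07, edgeR adjusted p = 0.0972; DESeq2, 0.0241). D2HGDH, a mitochondrial dehydrogenase, stood at 44.2, 46.9 and 46.8 CPM against 35.6, 39.3 and 39.2 CPM (0.27 ± 0.09, edgeR adjusted p = 0.233; DESeq2, 0.0415). TMEM259 stood at 193, 193 and 186 CPM against 160, 174 and 164 CPM (0.20 ± 0.08, edgeR adjusted p = 0.37; DESeq2, 0.0412). PYGO2, a Wnt pathway cofactor, gave 0.19 ± 0.05, PCSK4, a proprotein convertase, 0.61 ± 0.17, WBP2 0.17 ± 0.06, the kinase MAP3K10 0.17 ± 0.07 and SLC22A18 0.22 ± 0.09. TNFAIP2, a target of tumour necrosis factor signalling, stood at 190, 192 and 184 CPM against 172, 180 and 173 CPM, without overlap but with a difference of 0.11 ± 0.07 (edgeR adjusted p = 0.553). On the lower side were MRPL13, a mitochondrial ribosomal protein, at -0.35 ± 0.11, ANKRD44 at -0.28 ± 0.12, PPP1R2, an inhibitor of protein phosphatase 1, at -0.20 ± 0.08 and TFAM, given above.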

How the data were processed

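RNA of 30 tumoroid cultures, hybrid except in the group without DSLBs, was sequenced by the authors from 150 ng total RNA each. Reads were 75-nt single-end, from a directional kit. Their processing notes name FastQC 0.11.2, Trim Galore 0.3.3, cutadapt, STAR, RSEM and SAMtools 1.3.1 on hg38. The deposited RSEM expected counts, TPM values and record lengths per gene were used. The annotation release, the strand setting of the counting and the selection of RNA are not given in the sources used. After rounding to whole numbers, the expected counts were tested with edgeR 4.0.16 (quasi-likelihood, TMM, filterByExpr, robust) in R 4.3.3, all 30 libraries in one model, with Benjamini-Hochberg adjustment over 18424 genes. A log2 fold change is given ± SE, and a negative value means lower with PD-1/CD40L. CPM relate rounded expected counts to the total of the tested genes in a library, scaled by its TMM factor, and TPM are the authors' values. Mitochondrial shares were compared with a two-sided exact permutation test. DESeq2 1.42.0 and limma 3.58.1 were alternatives, beside other scalings, filters, libraries left out and a replicate block.

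Of 60483 records 56321 matched GENCODE on GRCh38 by identifier, which gave types, positions and the sequences. The genes named were those past the threshold, the 10 with the smallest p on each side among genes with a mean of at least 50 counts and no overlap, the study's list, and members of the gene lists with an unadjusted p under 0.05 or a stated role. The members and lists were chosen with earlier results of these data known. The labels call the replicates biological and do not say that they came from separate cultures on separate days, so p-values measure the spread between these samples only. In a simulation of this comparison on 18424 genes, edgeR recovered 69 of 100 genes changed by 0.5 and 90 of 100 changed by 1 on the log2 scale, with 5 false calls. DESeq2 recovered 73 and 91 with all libraries, with 24 false calls, and 66 and 88 with the 6 libraries, with 30 false calls. The changed genes had a mean of at least 50 counts, and no simulated library was made to stand apart. Counts were drawn with the spread per gene that edgeR had fitted, so the tools were compared under edgeR's own estimates. With 100 genes changed at each size, an adjusted p under 0.05 is easier to reach than where few genes differ. Recovery in these data may thus be lower. Recovery of RNAs with few counts was thus not tested.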

Additional observations from a re-analysis of the deposited data

Results flagged for a closer look

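The level of 2 RNAs differed between PD-1/CD40L and the mean of the 6 other groups that paired PD-1 with a ligand, by a test of that difference across all genes. SCARNA7 was higher by 2.21 on the log2 scale (edgeR adjusted p = 5.6e-05). It was higher than in PD-1/ICOS, PD-1/LAG3 and PD-1/TIGIT, and its differences from PD-1/CD2, from PD-1/CD27 and from PD-1/CTLA4 were 0.05 to 0.08, each with an SE of 0.31. The 5.8S rRNA records RNA5-8SN1, RNA5-8SN2, RNA5-8SN3 and 5_8S_rRNA were each higher by 2.33 (edgeR adjusted p = 0.049), and as they hold the same counts they are 1 result. That call was lost with the replicate block (edgeR adjusted p = 0.0919), and when PD-1/CD40L replicate 1 or replicate 2 was left out (edgeR adjusted p = 0.244 and 0.276). Leaving out PD-1 replicate 2 or replicate 3, which enter through the shared spread, gave edgeR adjusted p = 0.0734 and 0.0514, and scaling without mitochondrial genes 0.0557. Against PD-1/CD2, PD-1/LAG3, PD-1/CD27 or PD-1/CTLA4 by themselves these records did not pass. Of the 3 PD-1/CD40L libraries, the summed 5.8S rRNA was 164 CPM in the highest and 55.8 CPM in the lowest.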

How the results depend on the processing

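Against PD-1 alone the count of genes past the threshold was 2, and it stayed at 2 with RLE factors, with scaling that left out mitochondrial genes and with the replicate block, and was 3 without the 3 or the 4 libraries that stood apart most. It was 110 and 162 with DESeq2 on 30 and on 6 libraries, 4 with edgeR on 6 libraries, 7 with limma-voom, 4 with counts thinned to the total of the smallest library, 35 (19 higher and 16 lower) with a length trend removed, 56 at a threshold of 0.1, 481 with no filter on low counts (39960 genes), 1 at a mean of at least 100 counts (12668 genes), 0 among protein-coding genes and 1 without the 2 libraries of these groups that stood apart. Leaving out one replicate at a time gave 1 to 12, with 1 without PD-1 replicate 1 or replicate 2, 12 without PD-1/CD40L replicate 1, 7 without PD-1 replicate 3 and 4 without PD-1/CD40L replicate 2. With plain DSLBs as the reference it was 4700. Against the mean of the 6 other groups the count of 5 became 53 with DESeq2, 262 with no filter, 2 with the replicate block, 8 and 26 without the 3 and the 4 libraries that stood apart most, and 1 to 6 with one PD-1/CD40L replicate left out, the lowest without replicate 2. With one group as the reference it was 2 for PD-1/CD2, 0 for PD-1/CD27, 0 for PD-1/CTLA4, 3 for PD-1/LAG3 and 117 for PD-1/TIGIT. The cause of these shifts was not tested, apart from the number of genes or libraries that a setting itself changes.

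Replicate numbers are shared between the groups. Deviations of same-numbered samples correlated at 0.13, -0.006 and 0.107, so the numbers were not taken to pair the samples. The mitochondrial share difference of 2.16 percentage points ranged from 1.51 to 2.49 with one library left out, and was 3.42 by TPM. For 35 named genes, 659 of 791 alternative values kept direction and call, 126 gained a call and 3 lost it, all 3 of MT-RNR1. With plain DSLBs as the reference ENSG00000237550 was 0.12, PPP1R2 0.13 and MT-ND6 -0.043, each opposite in sign to its value against PD-1. SCARNA7 kept its call in each fit that gave it an adjusted p. Its 2 to 5 counts per PD-1 library, and those of other short RNAs, limit how well such differences can be sized.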
